A study of Homo sapiens with 40 samples.

Results

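The genes described here are the collagens, the laminins, fibronectin and the integrins, the main fibres and sheets of the extracellular matrix and the receptors that hold cells to them. They were chosen by symbol alone: every numbered collagen chain, every laminin alpha, beta and gamma chain, every integrin alpha and beta subunit, and FN1. This gave 83 of the 62263 genes in the deposited table, made up of 44 collagen, 12 laminin and 26 integrin genes and fibronectin. RNA came from BEAS-2B, an immortalised human bronchial epithelial cell line, separated by Frac-seq into input (total RNA) and polysome RNA (mRNA carried by several ribosomes). The cells were stable lines expressing a control hairpin (shControl) or one directed at IGF2BP3 (shIGF2BP3), which codes for a protein that binds mRNA. This follows the growth protocol; the sample titles call the same groups siC and siIGF2BP3, so the kind of knockdown reagent is uncertain. The protocol names 1 line per hairpin, so the hairpin and any other difference between the lines cannot be told apart. All cells were grown in medium with 10% serum and starved in 2% serum, then either kept without cytokine or stimulated with 100 ng/ml of IL-13, and harvested 24 h later. The 8 groups of fraction, line and treatment held 5 libraries each, 40 in all.

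Collagen chains assemble as trimers in the endoplasmic reticulum, are modified and crosslinked on the way out, and form fibrils or, as type IV, the network of the basement membrane. Laminins are trimers of an alpha, a beta and a gamma chain that form the other sheet of that membrane, and fibronectin is a secreted dimer that cells pull into fibrils. Integrins are pairs of an alpha and a beta subunit that bind these proteins and link them to actin through talin and its partners. Their mRNAs are translated on ribosomes at the endoplasmic reticulum. Bronchial epithelial cells sit on a basement membrane of this kind, and IL-13 is a cytokine of allergic airway inflammation.

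The genes of COL4A1 and COL4A2 lie head to head, and the stretch between their start sites is printed here because both genes start from it and both mRNAs were abundant. It spans 126 bases at chr13:110307158-110307283 of RefSeq's GRCh38.p14, on the strand from which COL4A2 is read. It was searched on both strands for the CCAAT box (letters CCAAT), the GC box (letters GGGCGG) and the TATA motif (letters TATAAA). Capitals mark the matches found.

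COL4A1-COL4A2: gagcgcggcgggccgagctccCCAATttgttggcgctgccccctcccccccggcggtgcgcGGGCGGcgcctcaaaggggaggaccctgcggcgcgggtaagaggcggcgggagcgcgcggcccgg

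CCAAT stands at bases 22 to 26 and GGGCGG at bases 62 to 67, counted from the 5′ end, and TATAAA has no match in these letters. Over the last 126 bases before the start of 35116 promoters in the same RefSeq table, 21.1% held CCAAT, 34.6% held GGGCGG and 5.87% held TATAAA on either strand. In the 20 input libraries the TPM (a level scaled for transcript length and depth) of COL4A2 was between 2.26 and 3.88 times that of COL4A1, with a median of 3.18. COL1A1 and COL1A2, the chains of type I collagen, lie on different chromosomes. COL1A1 was between 14.3 and 77.7 times COL1A2, with a median of 20.4. The highest of these ratios came from unstimulated control input replicate 1. Without that library, a choice made after seeing the data, the highest was 31.4, and COL4A2 was between 2.45 and 3.88 times COL4A1. Other pairs, chosen after their values were seen, went both ways. Without the same library LAMC1 was between 1.81 and 2.79 times LAMB1, and LAMA3 between 1.22 and 18.4 times LAMB3. Whether the shared stretch bears on the ratio was not tested.

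Of the 83 genes, 54 passed a filter on low counts (26 collagens, 10 laminins, 17 integrins and FN1) and were tested, among 16735 genes tested in all. In input, 15 of the 83 had a median of at least 10 TPM and 31 at least 1 TPM, while 24 had a median of 0. Of all genes tested, 38.7% reached 10 TPM and 73.4% reached 1 TPM.

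The most abundant of these mRNAs in input were integrin subunits and the collagens and laminins of the basement membrane, with COL1A1 and fibronectin beside them. ITGB1, the beta subunit shared by most matrix-binding integrins, ran from 94.2 to 310.1 TPM with a median of 158.1 over the 20 input libraries. ITGA3, its laminin-binding partner, ran from 61.3 to 192.7 TPM with a median of 114.2. ITGB4, the subunit of hemidesmosomes, had a median of 96.5 TPM, and ITGA6, the only alpha subunit it pairs with, had 5.60 TPM. In each input library ITGB4 was between 5.82 and 29.8 times ITGA6 in TPM. ITGA5, the alpha subunit of the classical fibronectin receptor, had a median of 18.1 TPM, and ITGA3 was between 2.37 and 8.07 times as abundant in every input library. Both of these lower limits came from unstimulated control input replicate 1, and without it they were 10.6 for ITGB4 over ITGA6 and 5.54 for ITGA3 over ITGA5. FN1 itself ran from 14.3 to 144.2 TPM with a median of 85.3.

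Among collagens, COL1A1 led with a median of 103.3 TPM, followed by COL4A2 at 87.9, COL12A1 at 31.9, COL4A1 at 28.2 and COL18A1 at 15.1 TPM. COL12A1 codes for a collagen that decorates fibrils, and COL18A1 for a basement membrane proteoglycan core. COL1A2, the partner chain of COL1A1 in type I collagen, had 5.05 TPM. Among laminins, LAMC1 (33.7 TPM), LAMB2 (32.3 TPM) and LAMB1 (14.7 TPM) were the abundant chains. The alpha chains were scarcer, at 4.65 TPM for LAMA5 and 2.60 TPM for LAMA3. Levels varied widely between libraries: in the order of these 31 genes by level, the ranges of all 30 pairs of neighbours overlapped.

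**Figure D1:**
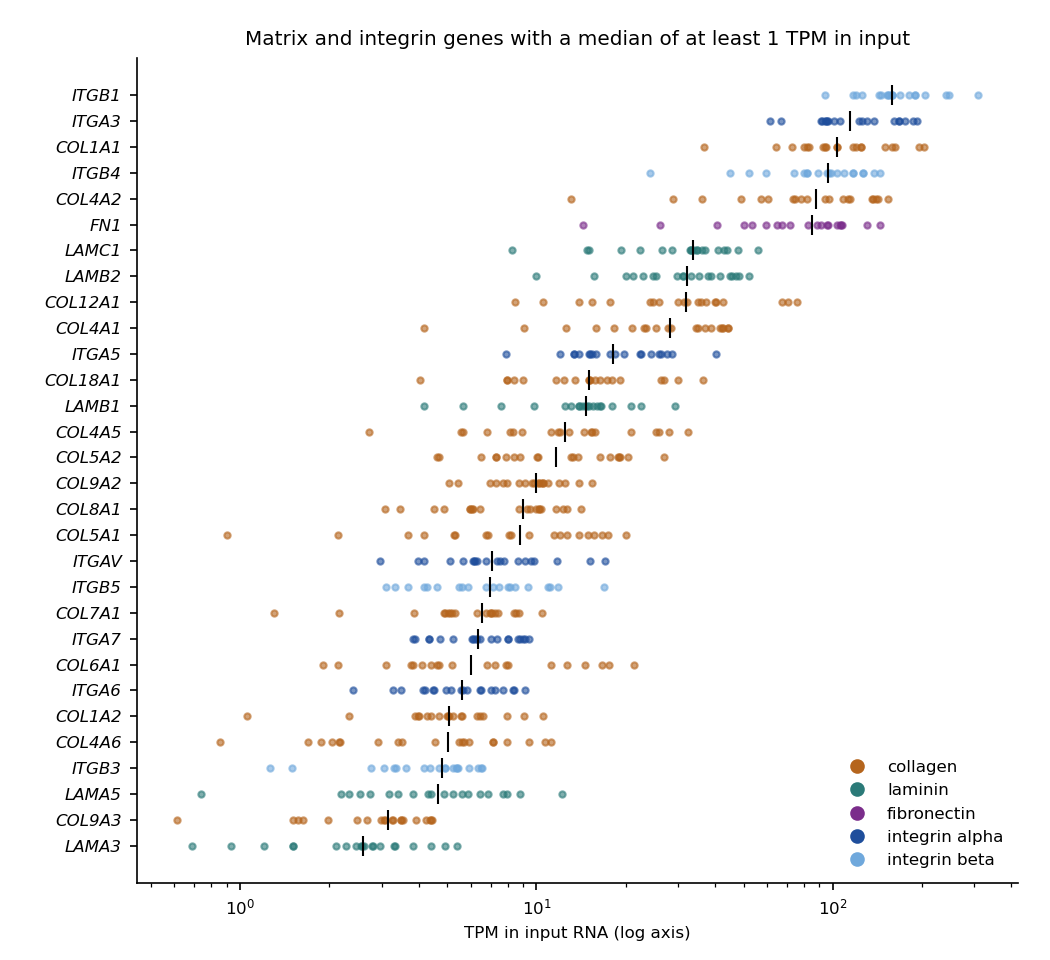
TPM in input RNA (log axis) of 30 collagen, laminin, fibronectin and integrin genes with a median of at least 1 TPM; each point is 1 of 20 input libraries and the black bar is the median. ITGB1 has the highest median, 158.1 TPM, and the ranges of neighbouring genes overlap throughout.

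The other 29 genes failed the filter. They were ITGAL, ITGAM, ITGAD, ITGAE and ITGB2, subunits of leukocyte integrins; ITGB6, ITGA8, ITGA9 and ITGA10; the laminin chains LAMB4 and LAMC3; and 18 collagens. The collagens were COL4A3, COL6A3, COL6A5, COL6A6, COL9A1, COL10A1, COL11A1, COL14A1, COL16A1, COL17A1, COL19A1, COL20A1, COL21A1, COL22A1, COL23A1, COL24A1, COL25A1 and COL28A1. COL17A1 codes for the transmembrane collagen of hemidesmosomes, in which ITGB4 also sits. Of leukocyte integrin subunits, ITGAX and ITGB7 passed the filter. Their input medians were 0.03 and 0 TPM, with no counts in 19 and 26 of the 40 libraries.

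The labelled cell type was compared with marker genes. Of 18 airway and basal epithelium markers 6 had a median of at least 1 TPM in input. These were the keratins KRT8 (845 TPM), KRT18 (580 TPM), KRT17 (410.1 TPM), KRT7 (120.0 TPM) and KRT19 (35.3 TPM) and the tight junction gene CLDN1 (9.55 TPM), while EPCAM (0.30 TPM), CDH1 (0.14 TPM), KRT5 (0.08 TPM) and TP63 (0 TPM), which mark epithelial adhesion and basal cells, were at or near 0. VIM (1278 TPM), THY1 (68.4 TPM) and PDGFRB (30.7 TPM), which mark mesenchyme, were present, and DCN, LUM, PDGFRA and FAP had medians of 0. Of 15 fibroblast and mesenchyme markers 9 had a median of at least 1 TPM, and their sum ran from 909 to 1681 TPM over input libraries and overlapped between all 4 input groups. The defining leukocyte marker PTPRC and the endothelial markers PECAM1 and KDR had medians of 0. Of 12 leukocyte markers 3 reached 1 TPM, CD14 (15.1 TPM), CD68 (8.23 TPM) and CORO1A (6.57 TPM), and the list summed to between 20.8 and 51.8 TPM over input libraries. Of 8 endothelial markers 1 did, EGFL7 (18.3 TPM), and that list summed to between 15.4 and 26.4 TPM. Input libraries held between 14044352 and 40441061 estimated counts and polysome libraries between 1816848 and 34082191. In polysome RNA, 3 libraries held fewer than 5000000 counts, all of them from cells labelled knockdown. IGF2BP3 itself, the check of the labels, measured 35.2 ± 11.3 CPM (counts scaled for library size; SD, n = 5) in unstimulated control input and 24.9 ± 3.02 CPM in cells labelled knockdown, with overlapping libraries, and 11.2 ± 6.84 against 11.2 ± 8.60 CPM in polysome RNA. The direction of every line effect below therefore rests on the labels.

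The question of how far these mRNAs were carried by polysomes was asked by comparing polysome with input libraries. Matrix and integrin mRNAs were lower in polysome RNA than in input. Of the 54 tested, 43 fell and 2 rose in edgeR's quasi-likelihood test on the mean of the 4 line and treatment groups (Benjamini-Hochberg adjusted p under 0.05, which is what called means here). Over all genes tested, 38.9% were called lower and 26.2% higher. The median log2 fold change was -2.10 for the 54 genes and -0.24 for all genes. For 9 of them, 8 called, every library of at least 1 polysome group held at most 3 counts, and with those groups set to 3 counts per library the median was -1.74. These are shares of the RNA sequenced in each fraction; the amount of RNA in the fractions, and fewer cells against less RNA per cell, cannot be told apart in such samples.

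Fibronectin and most collagens tested fell. FN1 ran from 1.62 to 8.21 TPM with a median of 5.56 over the 20 polysome libraries, all below the lowest input library. Its input median was 85.3 TPM. The log2 fold change was -3.64 ± 0.19 (SE, adjusted p = 1.71e-19 in edgeR). COL12A1 fell furthest among the abundant genes. Its polysome libraries ran from 0.58 to 3.81 TPM with a median of 1.83, again without overlap with input, and its log2 fold change was -4.31 ± 0.21 (adjusted p = 8.27e-20 in edgeR). Of the type IV collagen chains, COL4A1 and COL4A2 moved alike in value, while COL4A5 and COL4A6 had log2 fold changes of -2.90 and -1.46. COL4A1 went from a median of 28.2 TPM in input to 2.16 TPM in polysome RNA and COL4A2 from 87.9 to 6.53 TPM, with log2 fold changes of -3.54 ± 0.24 and -3.36 ± 0.26, although the highest polysome library of each lay above its lowest input library.

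The fibril-forming collagens COL1A1, COL1A2 and COL5A2 fell by 2.54, 2.87 and 3.00 on the log2 scale. COL1A1 ran from 8.32 to 30.6 TPM in polysome libraries with a median of 17.5, below every input library. COL7A1, the collagen of anchoring fibrils, fell by 3.37. By class, 8 of 9 fibrillar collagens fell (median -2.87), as did 7 of 8 basement membrane collagens (median -3.13) and 6 of 9 other collagens (median -1.11). Those that fell include COL3A1, COL2A1 and COL4A4, which had polysome groups of at most 3 counts per library. With those groups set to 3 counts, their values went from -4.19, -3.79 and -3.65 to -1.68, -1.40 and -2.50. The collagens not called were COL9A2, COL11A2, COL13A1, COL15A1 and COL26A1. COL9A2, at 9.97 TPM in input, was the most abundant of these, with 7.66 TPM in polysome RNA, and its log2 fold change was -0.20 ± 0.12.

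Most laminin alpha and beta chains fell as well. All 3 beta chains tested fell, and 4 of 5 alpha chains did. The alpha chain not called was LAMA2, a chain of muscle laminin (0.16 ± 0.33). LAMA1 and LAMA4, which fell, had polysome groups of at most 3 counts per library. With those groups set to 3 counts, their values went from -5.53 and -2.51 to -2.44 and -1.45. LAMC1 went from a median of 33.7 TPM in input to 5.46 TPM in polysome RNA (-2.37 ± 0.13, adjusted p = 1.60e-18 in edgeR) and LAMB2 from 32.3 to 3.39 TPM (-2.93 ± 0.20).

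By class median, integrin beta subunits were lowered least. Alpha subunits were lowered less than fibrillar and basement membrane collagens, and more than the other collagens (median -1.11). Of 11 alpha subunits 9 fell and 1 rose (median -1.81), and of 6 beta subunits 3 fell and 1 rose (median -0.44). Those that fell include ITGB7, ITGA1 and ITGA2, which had polysome groups of at most 3 counts per library. With those groups set to 3 counts, their values went from -2.15, -3.96 and -3.73 to -0.07, -1.42 and -2.10. ITGA3 ran from 15.2 to 56.1 TPM in polysome libraries with a median of 24.8, below every input library (-1.88 ± 0.19). ITGB4 went from a median of 96.5 TPM in input to 20.7 TPM in polysome RNA (-1.90 ± 0.18), and ITGA5 from 18.1 to 7.21 TPM (-0.84 ± 0.23, adjusted p = 0.00180 in edgeR). ITGB1, with a polysome range of 44.0 to 190.3 TPM and a median of 109.0, overlapped its input range (-0.57 ± 0.12, adjusted p = 5.95e-05 in edgeR). ITGB3, the beta subunit of vitronectin and fibrinogen receptors, had medians of 4.795 TPM in input and 4.03 TPM in polysome RNA and was not called (0.17 ± 0.19).

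ITGB5 and ITGA2B were the members that rose. ITGB5, a partner of ITGAV in binding vitronectin, ran from 3.10 to 17.0 TPM in input (median 6.95) and from 1.99 to 24.4 TPM in polysome libraries (median 9.16). The ranges overlapped, and the log2 fold change was 0.60 ± 0.22 (adjusted p = 0.0178 in edgeR). Without IL-13 control polysome replicate 2 the value was 0.48 with an adjusted p of 0.0508. ITGAV fell by 2.74. ITGA2B, the alpha subunit of the platelet fibrinogen receptor, was near the lower limit of detection at medians of 0.22 TPM in input and 0.59 TPM in polysome RNA (1.67 ± 0.44, adjusted p = 0.00120 in edgeR). The 5 platelet and megakaryocyte markers summed to at most 0.12 TPM in any input library and 0.05 TPM in any polysome library.

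**Figure D2:**
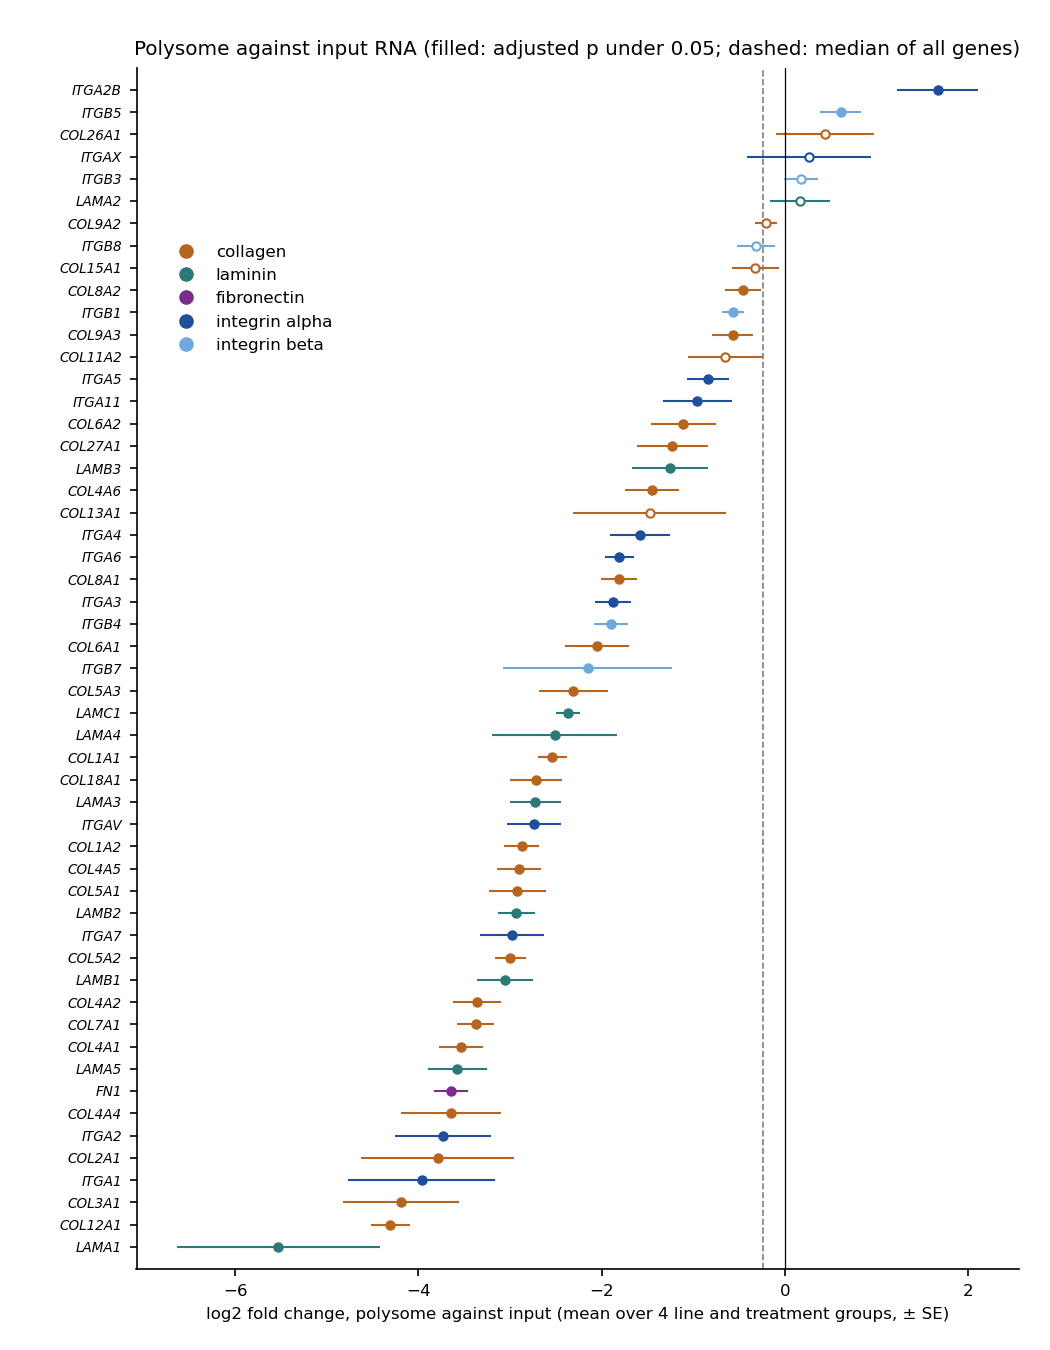
Log2 fold change of polysome against input for the members tested and reported, mean over the 4 line and treatment groups with its SE; filled points passed an adjusted p of 0.05, and the dashed line is the median of all genes (-0.24). Of the 54 tested, 43 were called lower and 2 higher, with collagens, laminin chains and FN1 toward the lower end and integrin beta subunits toward the upper.

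The pattern was alike in value in each line and treatment. Called lower were 33 of 54 genes in unstimulated control cells, 31 in control cells with IL-13, 27 in unstimulated cells labelled knockdown and 30 in those with IL-13, against 22.8%, 22.6%, 22% and 23.3% of all genes in the same order. None was called higher in any of the 4, where 2910, 2800, 2750 and 2677 of the 16735 genes tested were called higher. FN1 had log2 fold changes of -3.76, -3.57, -3.72 and -3.52 in these settings, and COL1A1 -2.55, -2.50, -2.59 and -2.52. Whether the line or IL-13 moved the polysome to input difference was tested with interaction terms. No member was called for either (0% of all genes). An unadjusted p under 0.05 was found for 3 and 2 members (5.56% and 3.70%), against 1.91% and 1.64% of all genes. DESeq2's Wald test called no member for either, and 13 of 16735 genes for each.

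IL-13 control polysome replicate 2 stood apart from its group: COL4A2 measured 90.7 CPM there and 18.5 to 26.2 CPM in the other 4 libraries, and ITGA3 296.2 CPM against 73.4 to 103.7 CPM. Without it 44 of 54 genes were called in polysome against input. COL4A2 then stood at -3.54 and ITGA3 at -2.02.

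These mRNAs are long, and coding length is given beside the result because it moved with it. Among the 54 genes the longest annotated coding sequence (GENCODE release 29) had a median of 4134 bases, from 1326 to 11088, against 1398 bases in other genes tested. Across genes, which are not independent replicates and share the same libraries, Spearman's rho between coding length and the log2 fold change was -0.57 in the 54 genes and -0.45 in 13391 other genes with a length. Genes other than members had a median of 0.27 under 1000 bases, -1.05 from 3000 to 4000, -1.53 from 4000 to 6000 and -2.34 at 6000 or more. The members within the same 3 upper ranges had medians of -1.58 (15 genes), -2.87 (21 genes) and -3.57 (7 genes), and 10, 17 and 6 of them lay below the median of other genes of that range. Between 2000 and 3000 bases, where 10 members lie, the medians were -0.51 for members and -0.58 for others. LAMA2 was the gene of at least 6000 bases that lay above its range's median. The members' medians and counts use fitted values, also for members with a polysome group of at most 3 counts per library. The part of coding length in the result was not tested beyond these values.

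**Figure D3:**
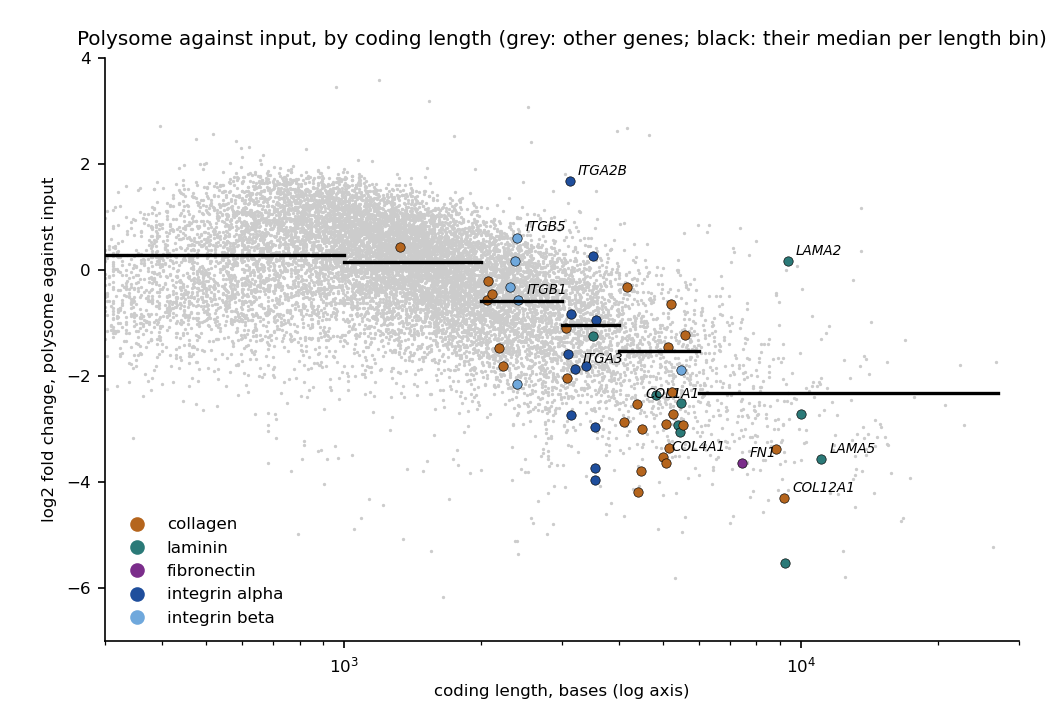
Log2 fold change of polysome against input by longest annotated coding length (log axis); grey points are other genes tested, coloured points the members reported, and black bars the median of other genes in each length range. From 4000 to 6000 bases the members' median is -2.87 and that of other genes -1.53.

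The partners of integrins inside the cell were split. Of 42 focal adhesion and integrin signalling genes tested, 22 fell and 13 rose in polysome RNA (median -0.85, against -0.24 for all genes). TLN1 and TLN2, the talins that activate integrins, fell by 3.64 and 2.74, and the actin crosslinkers ACTN1 and ACTN4 fell by 2.03 and 2.33. VASP, PARVA and ILK of the same list had values above 0 (1.28, 1.25 and 0.99). Their coding lengths were 1143, 1239 and 1452 bases, against 7626 for TLN1, 7629 for TLN2, 2793 for ACTN1 and 2736 for ACTN4. Of 33 genes that modify, fold, export or crosslink collagen, 12 fell and 9 rose (median -0.33), which is near the 38.9% lower and 26.2% higher of all genes. MIA3, an export receptor for collagen, fell by 2.06, LOXL2, a crosslinking oxidase, by 2.24 and PLOD2, a lysyl hydroxylase, by 1.79. PPIB, a prolyl isomerase that helps collagen fold, rose (1.57 ± 0.18). Of 30 other matrix and matrix turnover genes, 16 fell and 10 rose (median -0.66). The large glycoproteins THBS1, THBS2, FBN1 and TNC fell by 2.95, 2.65, 3.33 and 3.54. TIMP1 and CD151 of the same list had values above 0 (1.39 and 1.15). Their coding lengths were 624 and 762 bases, against 3513, 3534, 8616 and 6606 for the 4 glycoproteins. Other genes of these lists went the other way. ITGB1BP1 (603 bases), BGN (1107 bases), EFEMP1 (1482 bases) and MMP14 (1749 bases) had values of -0.83, -1.20, -1.08 and -1.48. PXN, at 3246 bases, had a value of 0.32. The part of coding length in these lists was not tested.

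The effect of line was compared within each fraction, over both treatments. Few members differed between the lines: 1 of 54 was called in input, against 0.406% of all genes, and 2 of 54 in polysome RNA, against 1.38% of all genes. ITGA4, an alpha subunit that binds fibronectin and the vascular adhesion molecule VCAM1, was called in polysome RNA, where it was higher in cells labelled knockdown. Control polysome libraries measured 0.42, 0, 0.63, 0.09 and 1.00 CPM unstimulated and 1.52, 0, 0.37, 1.26 and 0.22 CPM with IL-13. Cells labelled knockdown measured 1.00, 2.53, 1.48, 3.10 and 4.40 CPM unstimulated, and 1.88, 1.74, 2.07, 1.35 and 0 CPM with IL-13. The lines overlapped with IL-13, and without it the highest control library and the lowest library of cells labelled knockdown were both at 1.00 CPM. The log2 fold change was 1.87 ± 0.48 (adjusted p = 0.0367 in edgeR), but the call was lost in 10 of 20 fits that left out 1 library each, with adjusted p up to 0.0858, and with the 20 polysome libraries alone (adjusted p = 0.348). In input the difference was 1.28 ± 0.44 (adjusted p = 0.373 in edgeR), from 1.96 ± 0.76 to 4.42 ± 1.61 CPM (SD, n = 5) without IL-13 and from 1.91 ± 0.44 to 5.04 ± 2.26 CPM with it. Unstimulated input libraries did not overlap (0.72 to 2.76 CPM in control cells, 3.04 to 6.99 CPM in cells labelled knockdown), and those with IL-13 did. The input difference was called with the 20 input libraries alone (adjusted p = 0.0115 in edgeR). It was called in none of 20 fits that left out 1 library each (lowest adjusted p = 0.301).

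Within single treatments no member was called in edgeR, in input without and with IL-13 or in polysome RNA without and with IL-13. Of all genes, 0.012%, 0%, 0.0299% and 0.0896% were called in these 4. The members with an unadjusted p under 0.05 numbered 4, 4, 8 and 3 of 54 (7.41%, 7.41%, 14.8% and 5.56%). Of all genes, 2.97%, 3.00%, 7.42% and 9.92% had one. DESeq2's Wald test called 1, 1, 2 and 1 members, and 28, 55, 89 and 144 of 16735 genes.

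The laminin chains LAMA3, LAMB3 and LAMC1 did not pass the test. LAMA3, an alpha chain of the laminin that anchors epithelia, measured 23.3 ± 10.8 and 26.4 ± 8.56 CPM (SD, n = 5) in unstimulated input of control cells and cells labelled knockdown. LAMB3 measured 20.6 CPM in unstimulated control input replicate 1 and 0.93 to 2.65 CPM in the other 4, against 2.00 to 6.48 CPM in cells labelled knockdown. LAMC1, which is common to most laminins, was higher in value by 0.48 ± 0.18 in input and 0.45 ± 0.18 in polysome RNA (adjusted p = 0.438 and 0.207 in edgeR).

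Of the members, 9 of 54 in input (16.7%) and 11 of 54 in polysome RNA (20.4%) had an unadjusted p under 0.05, against 5.87% and 14.7% of all genes. The median log2 fold change was -0.02 in input and 0.15 in polysome RNA, against -0.01 and -0.04 for all genes. These included values in both directions, and the genes named next were chosen after their values were seen. COL5A2, a chain of type V collagen that nucleates fibrils, had a log2 fold change of -0.80 ± 0.21 in input and -0.65 ± 0.23 in polysome RNA (edgeR adjusted p = 0.0959 and 0.138). DESeq2's Wald test called it in input (adjusted p = 0.0226). Its unstimulated input libraries measured 75.9, 140.7, 98.7, 46.8 and 120.6 CPM in control cells and 39.0, 51.7, 70.7, 47.8 and 40.7 CPM in cells labelled knockdown, which overlap. COL1A1 was lower in value by a like sign in both fractions (-0.47 ± 0.21 and -0.50 ± 0.21). COL7A1 was higher in value (0.57 ± 0.25 in input and 0.84 ± 0.27 in polysome RNA, adjusted p = 0.715 and 0.113 in edgeR). FN1 measured 554.8 ± 245.2 and 700.0 ± 203.0 CPM (SD, n = 5) in unstimulated input of control cells and cells labelled knockdown, with overlapping libraries.

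**Figure D4:**
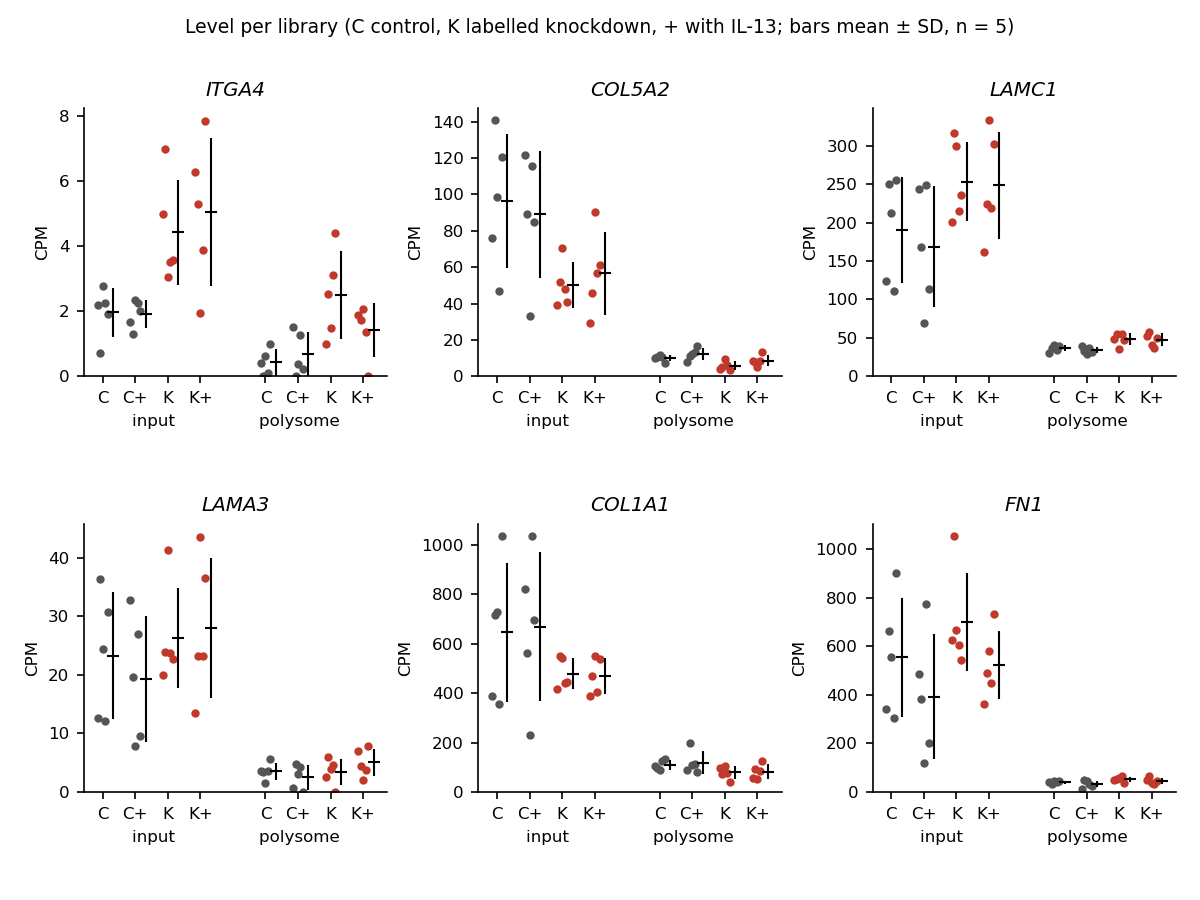
CPM of ITGA4, COL5A2, LAMC1, LAMA3, COL1A1 and FN1 in every library, by fraction, line and treatment, with the mean and SD of 5 libraries. ITGA4 polysome libraries lie between 0 and 1.52 CPM in control cells and between 0 and 4.40 CPM in cells labelled knockdown, and every gene shown overlaps between the lines over both treatments of a fraction. In unstimulated input taken by itself, ITGA4 does not overlap between the lines.

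Among genes around this pathway, MMP2, a gelatinase that degrades basement membrane collagen, was higher in cells labelled knockdown in input RNA, by 1.51 ± 0.31 on the log2 scale (edgeR adjusted p = 0.0103), from 19.6 ± 7.05 to 52.4 ± 18.7 CPM (SD, n = 5) without IL-13 and from 12.4 ± 4.27 to 37.4 ± 9.94 CPM with it. In polysome RNA it was higher by 1.53 ± 0.32. TIMP3, a matrix-bound inhibitor of metalloproteinases, was higher in polysome RNA (0.64 ± 0.17, adjusted p = 0.0464 in edgeR). These were 1 and 2 of 30 other matrix genes tested. Of 42 focal adhesion genes 0 were called in input and 1 in polysome RNA, TNS1, a tensin that links integrins to actin, and of 33 collagen processing genes none in either (edgeR; unadjusted p under 0.05 for 2 and 3 of them). TNS1 was at 0 CPM in all 5 polysome libraries of control cells with IL-13 and between 0.97 and 4.55 CPM in cells labelled knockdown with IL-13, and its unstimulated polysome groups overlapped. In input TNS1 measured 12.3 ± 4.93 and 13.4 ± 6.59 CPM (SD, n = 5) with IL-13 in the same order.

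The effect of IL-13 was compared within each fraction, over both lines and in each. No member was called in edgeR in any of the 6 comparisons. Over both lines, 0.149% of all genes were called in input and 0.209% in polysome RNA. In control cells these shares were 0.0777% and 0.125%, and in cells labelled knockdown 0.0837% and 0.0956%. Over both lines 2 members in input and 7 in polysome RNA had an unadjusted p under 0.05, and in single lines 1 and 1 in input and 5 and 3 in polysome RNA. DESeq2's Wald test called no member either, and over both lines 51 and 82 of 16735 genes in input and polysome RNA. The difference of the IL-13 effect between lines was called for no member in either fraction (0% of all genes in each). In each fraction 1 member (1.85%) had an unadjusted p under 0.05, against 0.914% of all genes in input and 3.36% in polysome RNA.

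In input 43 of 54 members had values below 0, with a median log2 fold change of -0.17 against 0.00 for all genes. The members share the same libraries and are not independent of each other. In control cells 42 were below 0 (median -0.23), and in cells labelled knockdown 35 (median -0.08). FN1 is an example of a value below 0. Unstimulated control input libraries measured 344, 662, 557, 306 and 905 CPM, and those with IL-13 485, 382, 121, 774 and 201 CPM. In cells labelled knockdown they measured 627, 1054, 669, 607 and 542 CPM unstimulated and 365, 491, 582, 448 and 734 CPM with IL-13. The treatments overlapped in both lines, and the log2 fold change was -0.46 ± 0.24 (unadjusted p = 0.0595, adjusted p = 1 in edgeR). ITGB1, ITGA3, COL1A1 and LAMC1 had values of -0.09 ± 0.17, -0.14 ± 0.27, 0.01 ± 0.21 and -0.10 ± 0.17.

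The lowest unadjusted p in input was that of LAMB3 (-1.23 ± 0.56, unadjusted p = 0.0352, adjusted p = 1 in edgeR). Its value rested on unstimulated control replicate 1 and was -0.38 without it. In polysome RNA, COL9A3, a chain of cartilage collagen, was higher in value (0.95 ± 0.32, adjusted p = 0.457 in edgeR), and LAMB1 and ITGB5 were lower (-0.89 ± 0.42 and -0.70 ± 0.32, adjusted p = 0.868 and 0.852). These 4 genes were chosen after their values were seen. In the lists around the pathway, TNS1 in polysome RNA was the only gene called for IL-13 over both lines, at 0 CPM in all control libraries with IL-13 and 0 to 3.34 CPM without. In cells labelled knockdown TNS1 measured 3.51 ± 2.81 CPM unstimulated and 3.26 ± 1.54 CPM with IL-13 (SD, n = 5) in polysome RNA. The effect of IL-13 on it was called in control cells and not in cells labelled knockdown, and the difference of that effect between lines was not called (adjusted p = 0.0977 in edgeR). The call over both lines goes with the control group at 0.

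**Figure D5:**
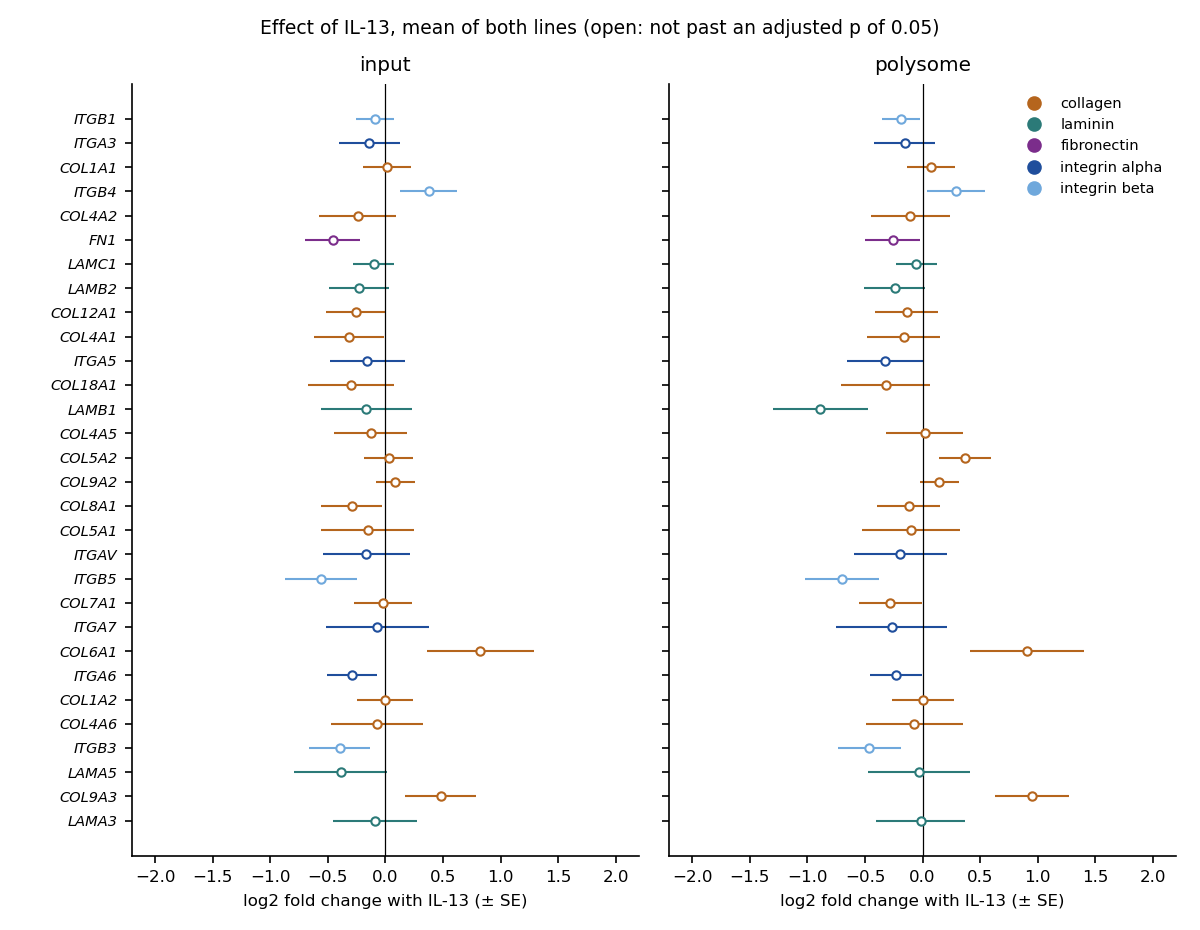
Log2 fold change with IL-13, mean of both lines with its SE, in input (left) and polysome RNA (right) for 30 genes of at least 1 TPM. Every point is open, which means that none passed an adjusted p of 0.05, and FN1 lies at -0.46 in input.

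The median level of these genes varied between input libraries, also within 1 group. For 29 members of at least 10 CPM, the median deviation from the mean of the 20 input libraries ran from -1.22 to 0.73 on the log2 scale. Within IL-13 control input it ran from -1.22 to 0.52. The lowest was IL-13 control replicate 3, followed by unstimulated control replicate 4 (-0.66) and IL-13 control replicate 5 (-0.65). The same measure over 656 other genes with a coding length of at least 4000 bases ran from -0.44 to 0.27 and was lowest in IL-13 control replicates 5 and 3. Over the 20 input libraries, Pearson's r between the measures was 0.70 (permutation p = 0.00108, adjusted over both fractions 0.00216) and Spearman's rho 0.48 (permutation p = 0.0353, adjusted 0.0706). Without the 2 libraries farthest from the median of the long genes r was 0.49. In polysome libraries fewer genes reached 10 CPM, so the measures there covered 14 members and 339 other long genes. With these r was 0.13 (permutation p = 0.592) and rho 0.30 (permutation p = 0.192). Both measures come from the same libraries and share their depth and scaling. The libraries of all groups were pooled, so differences of line and treatment are part of r, rho and the permutation p-values. The part of this variation in the input values for IL-13 was not tested.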

How the data were processed

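Estimated counts with decimals, and TPM, which the authors had scaled for length and depth, were deposited for 40 libraries, per the file headers. MultiQC, Trimmomatic, Salmon and DESeq2 are named, per the submitters' processing notes; the genome build and annotation are not given in the sources used here. The design had assumed counts, so the deposited estimated counts were rounded. Genes kept by filterByExpr (16735) were fitted with edgeR 4.0.16 in R 4.3.3, with TMM scaling, 1 mean per group, all 40 libraries and 32 residual degrees of freedom. Two-sided p-values were adjusted over all 16735 genes (Benjamini-Hochberg). CPM used the TMM-scaled library sizes. At least 99.91% of each library's counts were kept. Symbols matched 62246 IDs and not 17.

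The labels do not say that replicates were separate cultures, so p-values measure the spread between these samples, which may be technical. No replicate was a copy of another (lowest chi-square per degree of freedom 15.1 over 80 pairs). The members and lists were chosen with earlier results of these data known. Named were FN1, the 12 members of highest input level, up to 8 called members per direction and up to 4 called genes per list in each comparison; other genes named were chosen after their values were seen. Counts and medians include 1 member whose values are not reported here. Promoters (59 of 83 members matched) came from RefSeq. The procedure was tested on simulated data. Alternatives were other scaling, DESeq2 1.42.0, no filter, fewer libraries, a replicate block and a length offset.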

Additional observations from a re-analysis of the deposited data

Results flagged for a closer look

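Of 144 sets of 5 libraries (18 members whose library values are given, in 8 groups), 15 held a library whose gap to the nearest other was over 0.71 of the range. For normally distributed values about 7.2 would be expected. The CPM were not logged, some of these members were chosen after their values were seen, and the members are not independent of each other. The count is therefore no test against chance. In IL-13 control polysome replicate 2, COL18A1 measured 25.9 CPM (others 4.33 to 7.93), COL1A1 196.9 (81.0 to 112.8), COL4A2 90.7 (18.5 to 26.2), ITGA3 296.2 (73.4 to 103.7), ITGA5 67.3 (14.7 to 28.6), ITGB4 221.1 (71.6 to 104.6) and LAMB2 50.6 (10.1 to 13.8), all high. In unstimulated knockdown input replicate 2, COL18A1 measured 149.9 CPM (others 65.5 to 80.8), FN1 1054 (542 to 669) and ITGB4 640.3 (375 to 428), also high.

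Single members stood apart in other libraries. ITGB1 measured 604.5 CPM in unstimulated control polysome replicate 1 (others 260.0 to 288.9). LAMB2 measured 36.5 CPM in unstimulated control polysome replicate 4 (13.3 to 19.0). LAMB3 measured 20.6 CPM in unstimulated control input replicate 1 (0.93 to 2.65) and 3.19 CPM in unstimulated knockdown polysome replicate 4 (1.40 to 1.75). LAMB1 was at 0 CPM in IL-13 knockdown polysome replicate 5 (9.43 to 13.1), a library of 2302952 counts.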

How the results depend on the processing

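Of the counts of called members in 21 comparisons, those of polysome against input stayed within 1.5 times of the value reported in every setting and without any 1 library (41 to 47 of 54 over the mean, and 30 to 37, 27 to 35, 26 to 30 and 26 to 32 in the 4 settings). No named value changed sign with a call. For the line effect, DESeq2's Wald test called 2 members in input, 1 in each treatment of input, and 2 and 1 in unstimulated and IL-13 polysome RNA. With the 20 libraries of the fraction, 2 were called in input over both treatments, 1 in input with IL-13 and 1 in polysome RNA. Of all genes, 224 and 23 of 16044 were called in these input comparisons and 40 of 14582 in polysome RNA. In polysome RNA with IL-13, 1 was called without the libraries under 5000000 counts, 1 without unstimulated control replicate 1 and 1 with an offset for transcript length. Of all genes, 30 of 17405, 28 of 16995 and 25 of 16735 were called in these 3 settings. Leaving out 1 library gave 1 to 2 called members in input, 1 to 2 in polysome RNA and 0 to 1 in polysome RNA with IL-13. COL5A2 in input was also called without 3 libraries in turn (adjusted p = 0.0247, 0.0384 and 0.0389 in edgeR). ITGA4 in input was called with the 20 libraries of its fraction (1.27, adjusted p = 0.0115), and COL7A1 in polysome RNA by DESeq2 (0.86, adjusted p = 0.0398). For IL-13 and the interaction terms no member was called in any setting.

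Replicate numbers did not pair the libraries: deviations of input and polysome libraries with the same line, treatment and number correlated at -0.33 to 0.54 (over 0.1 in 7 of 20). With the number as a replicate block, ITGA4 in polysome RNA stood at 1.97 (adjusted p = 0.0430), and no line call changed. Depth limits the members near 0: 23 of the 54 tested had input medians under 1 TPM, and 3 polysome libraries held under 5000000 counts.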
